A study of Homo sapiens with 8 samples.

Results

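GPX1 depletion was set against control in Hs578T and MDA-MB-231, cell lines from human triple-negative breast tumours, and the contrast described here asks in which genes the response of the second line differed from that of the first. All 8 libraries of the series enter it, 2 in each of 4 groups read from the sample titles. The groups are Hs578T control, Hs578T after siRNA against GPX1 (siGPX1), MDA-MB-231 control and MDA-MB-231 siGPX1. The contrast, called the interaction below, is the log2 change after depletion in MDA-MB-231 minus that in Hs578T, so a positive value means a higher response in MDA-MB-231. Of 23686 listed genes 14249 were tested, and 10035 of these had a mean of at least 5 CPM (counts set to a common library total and scaled between libraries) in each line. The text deals mainly with those 10035, because a response can be measured in both lines only there. The titles and the cell line tag gave the line, while the source and tissue labels count upward from sample to sample within each line. A genotype tag calls the depleted samples knockouts although the titles name an siRNA. The type of control, the number of siRNAs and the time after transfection are not given in the sources used. Each line stands for 1 tumour, so a difference between them is a difference between these lines.

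GPX1 encodes a selenium-dependent glutathione peroxidase that reduces hydrogen peroxide in cytosol and mitochondria. IL-6 family cytokines signal through the shared receptor gp130 and the transcription factor STAT3, which switches on its own inhibitor SOCS3 and the C/EBP factors of the acute-phase response. Hypoxia-inducible factors are held low by oxygen-dependent prolyl hydroxylases and drive genes of angiogenesis, glucose uptake and glycolysis. Genes of the G2 phase and mitosis are switched on together late in the cell cycle through shared promoter elements.

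Depth was even, from 12905808 to 14216365 estimated counts per library with 15584 to 15817 genes above 0. GPX1 was at 84.0 and 84.2 CPM in Hs578T controls, 3.57 and 3.42 after depletion, 194 and 209 in MDA-MB-231 controls and 7.28 and 6.78 after depletion, with the 4 depleted libraries far under the 4 controls as labelled, and no difference between the lines' falls was called (interaction -0.25 ± 0.16, 95% interval -0.60 to 0.10, adjusted p = 0.409). Values in CPM are levels, and other values with an error are log2 changes after depletion or interactions. Here and below the SE follows the ± sign and adjusted p-values come from quasi-likelihood tests in edgeR, with the Benjamini-Hochberg method over all tested genes. The receptor gene ESR1 was nearly absent, with at most 3 counts in any library, and PGR was at 37 to 57 counts in Hs578T libraries and 0 to 2 in MDA-MB-231, while ERBB2 was at 57.6 to 82.8 CPM over the 4 groups. VIM, a mesenchymal marker, was at 4783 CPM in Hs578T controls and 1868 CPM in MDA-MB-231 controls. For ERBB2 and VIM these CPM were set to the library total alone, without the scaling between libraries. EPCAM and CDH1, epithelial markers, were at 0 to 3 counts in every Hs578T library. In MDA-MB-231 they were at 304 to 366 and 10 to 28 counts. The largest gap between replicates was that of Hs578T siGPX1 (mean chi-square per gene 3.86, against 1.34 to 1.91 in the other groups). Nothing in the labels says that replicates were separate cultures, so p-values rest on the spread among these libraries alone, and that spread can be technical.

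The response of the lines differed in 2256 of the 10035 genes at 5 CPM in both (22.5%). Of these, 839 were higher in MDA-MB-231 (8.36%) and 1417 lower (14.1%). Over all 14249 tested genes the counts were 900 higher (6.32%) and 1528 lower (10.7%), 17% in all. Most of these differences were small. Among genes at 5 CPM in both lines 145 higher and 280 lower calls exceeded 1.5-fold, 18 and 64 exceeded 2-fold, and 1 and 5 exceeded 4-fold. Across those genes the changes in the lines correlated (Pearson r = 0.80 over 10035 genes, which are not independent replicates and share libraries), and the spread of the change was wider in Hs578T (SD 0.48 on the log2 scale) than in MDA-MB-231 (0.41). The change was the larger one in Hs578T for 74.6% of the called genes and for 62.2% of all 10035.

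The balance between higher and lower calls moved with the scaling and with single libraries, and no direction is read from it. Higher calls made up 37.1% of all calls here, 55.6% with DESeq2 size factors in edgeR, 57.5% by DESeq2, 53.9% with limma on TPM values and 67.9% with a filter of 5 CPM in 2 libraries. The median interaction of all tested genes lay between -0.06 and 0.05 over these settings. Leaving out any 1 of the 4 MDA-MB-231 libraries moved the share to between 66.2 and 67.4%, and leaving out any 1 Hs578T library to between 40.5 and 43.1%. The genes called in the same direction here and in all alternatives, apart from a test against a fold of 1.5, are called stable below. A gene without an adjusted p in some alternative was not counted. They numbered 506 higher and 348 lower at 5 CPM in both lines, which is 37.9% of the calls there. Of the differences over 2-fold, 15 of 18 higher and 62 of 64 lower were stable.

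**Figure D1:**
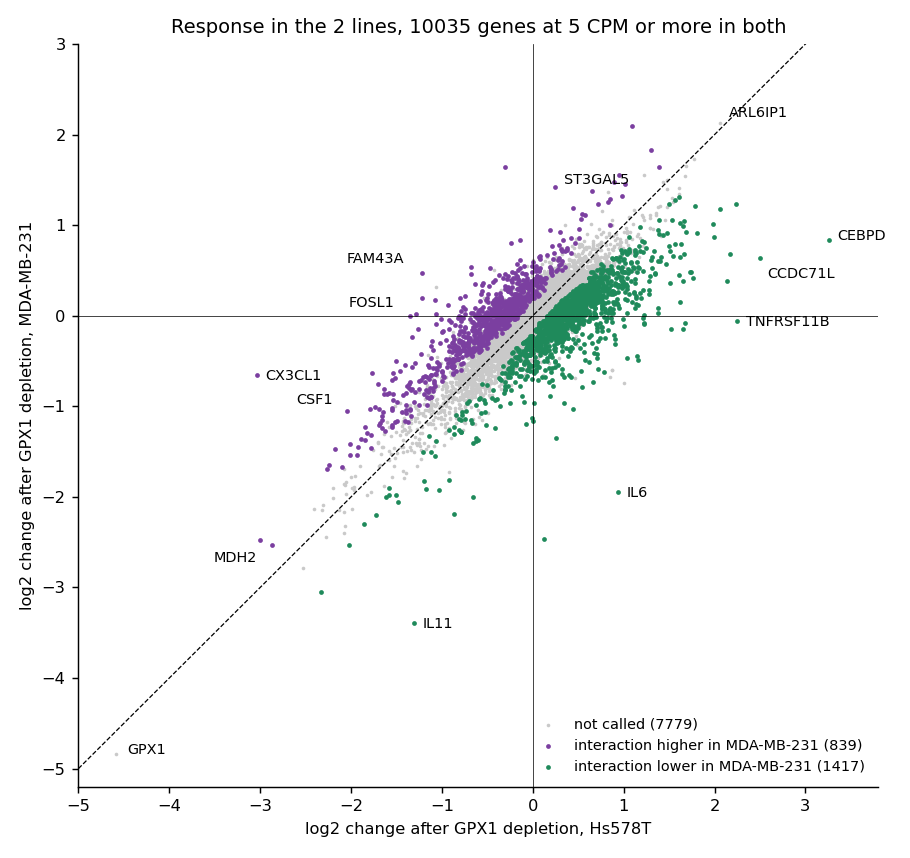
Log2 change after GPX1 depletion in Hs578T (x axis) against MDA-MB-231 (y axis) for the 10035 genes at 5 CPM or more in both lines, 1 point per gene. Grey points were not called in the interaction, purple points (839) were higher and green points (1417) lower in MDA-MB-231, the dashed line marks equal change, and IL6 lies far below that line in the quadrant of a rise in Hs578T and a fall in MDA-MB-231.

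Among genes at 5 CPM in both lines the largest difference was that of IL6. IL6, the cytokine that drives the acute-phase response through STAT3, was at 45.2 and 50.3 CPM in Hs578T controls, 89.2 and 93.5 after depletion, 94.1 and 91.3 in MDA-MB-231 controls and 24.5 and 23.7 after depletion. It rose in Hs578T (log2 change 0.94 ± 0.064) and fell in MDA-MB-231 (-1.94 ± 0.070), and the interaction of -2.88 ± 0.095 (adjusted p = 8.26e-11) was the largest in size among genes at 5 CPM in both lines. The control level was higher in MDA-MB-231, and depletion turned the order of the lines. Depleted Hs578T and control MDA-MB-231 overlapped, and the other groups lay apart. IL11, a cytokine of the same family that uses the same gp130 receptor, was at 27.5 and 33.3 CPM in Hs578T controls, 13.3 and 11.3 after depletion, 65.7 and 70.3 in MDA-MB-231 controls and 6.81 and 6.14 after depletion. It fell in both lines, with a log2 change of -1.31 ± 0.11 for Hs578T and of -3.39 ± 0.12 for MDA-MB-231 (interaction -2.08 ± 0.17, adjusted p = 8.10e-07). IL6ST, which encodes gp130, rose in both lines, by 0.63 ± 0.032 in Hs578T and 0.37 ± 0.033 in MDA-MB-231 (interaction -0.27 ± 0.046, adjusted p = 9.99e-04). That call was lost when any 1 of the 4 MDA-MB-231 libraries was left out, with adjusted p between 0.0521 and 0.0785.

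SOCS3, CEBPD, CEBPB, TNFRSF11B and NNMT rose in Hs578T, while in MDA-MB-231 they rose less or did not pass. No list of cytokine response genes was tested. SOCS3, the feedback inhibitor of cytokine receptors, was at 38.5 and 40.1 CPM in Hs578T controls, 107 and 139 after depletion, 34.0 and 35.4 in MDA-MB-231 controls and 30.3 and 32.4 after depletion. Both depleted Hs578T libraries lay above all 6 others, and the change in MDA-MB-231 did not pass (log2 1.65 ± 0.099 in Hs578T, -0.15 ± 0.11 in MDA-MB-231, interaction adjusted p = 1.08e-06). CEBPD, a C/EBP transcription factor of the acute-phase response, was at 11.1 and 9.88 CPM in Hs578T controls, 92.9 and 107 after depletion, 23.9 and 25.9 in MDA-MB-231 controls and 41.3 and 47.3 after depletion, a rise of 3.25 ± 0.11 in Hs578T and of 0.83 ± 0.092 in MDA-MB-231 (interaction -2.42 ± 0.15). CEBPB, its relative, was at 55.6 and 55.5 CPM in Hs578T controls, 119 and 141 after depletion, 46.6 and 46.9 in MDA-MB-231 controls and 42.1 and 45.7 after depletion, and the depleted Hs578T libraries lay above all 6 others, with -0.09 ± 0.080 for the change in MDA-MB-231 (interaction -1.32 ± 0.11, adjusted p = 1.10e-06). TNFRSF11B, the decoy receptor osteoprotegerin, was at 35.3 and 33.9 CPM in Hs578T controls, 145 and 183 after depletion, 8.10 and 8.16 in MDA-MB-231 controls and 6.88 and 8.85 after depletion. It rose by 2.25 ± 0.099 in Hs578T, had a log2 change of -0.05 ± 0.18 in MDA-MB-231, and had an interaction of -2.30 ± 0.21. NNMT, which methylates nicotinamide, was at 69.3 and 68.1 CPM in Hs578T controls, 296 and 321 after depletion, 32.0 and 31.8 in MDA-MB-231 controls and 50.6 and 51.8 after depletion, a rise in both lines that was larger in Hs578T (interaction -1.48 ± 0.078, adjusted p = 1.47e-08).

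Among complement genes, many of which belong to the acute phase, 4 with a rise in Hs578T were lower in the interaction. C3, the central component of the cascade, was at 6.39 and 7.60 CPM in Hs578T controls, 23.3 and 21.2 after depletion, 271 and 266 in MDA-MB-231 controls and 257 and 252 after depletion, so its level in depleted Hs578T stayed far under that of any MDA-MB-231 library (interaction -1.75 ± 0.11, adjusted p = 6.04e-08). C1R and C1S, the proteases that start the classical pathway, rose by 1.04 ± 0.043 and 1.36 ± 0.057 in Hs578T, with 0.29 ± 0.12 and 0.28 ± 0.20 in MDA-MB-231 (interactions -0.75 ± 0.13 and -1.08 ± 0.21). In MDA-MB-231 C1S was at 2.7 CPM on average, and its call was lost without the first control replicate of that line (adjusted p = 0.0774). CFB, a protease of the alternative pathway, rose in both lines, by 0.91 ± 0.066 and 0.35 ± 0.054 (interaction -0.56 ± 0.085). C4B has a near-identical copy and its value is uncertain. Of 16 complement genes tested, 5 were lower and 2 higher in the interaction, the latter being the membrane inhibitor CD59 (0.33 ± 0.050) and the secreted chaperone CLU (0.29 ± 0.063), and the list's median interaction of -0.04 lay near that of all tested genes (-0.06).

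Of 31 cytokines, chemokines and NF-κB targets tested, 5 were higher, 7 lower and 19 not called in the interaction, with a median of -0.07. Depletion itself changed 50.7% of all tested genes in Hs578T (28.6% rose, 22.1% fell) and 42.6% in MDA-MB-231 (20.7% rose, 21.9% fell). Those shares, with 6.32% higher and 10.7% lower in the interaction, are the background for every gene list described here. Of the 31, 8 rose and 13 fell in the first line, and 5 rose and 18 fell in the second. CX3CL1, the chemokine fractalkine, was at 20.1 and 21.8 CPM in Hs578T controls, 3.32 and 1.79 after depletion, 16.3 and 18.3 in MDA-MB-231 controls and 10.4 and 11.7 after depletion. It fell by 3.04 ± 0.21 in Hs578T and by 0.65 ± 0.13 in MDA-MB-231, the largest positive interaction among genes at 5 CPM in both lines (2.39 ± 0.25, adjusted p = 5.01e-06). CSF1, the macrophage growth factor, was at 634 and 641 CPM in Hs578T controls, 158 and 150.3 after depletion, 709 and 714 in MDA-MB-231 controls and 338 and 349.9 after depletion, with a fall in both lines that was larger in Hs578T (interaction 0.9997 ± 0.052). CSF2, the related granulocyte-macrophage factor, had an interaction of 0.85 ± 0.16 from -1.55 ± 0.14 in Hs578T and -0.70 ± 0.077 in MDA-MB-231. SOD2, the mitochondrial superoxide dismutase and an NF-κB target, and the adhesion molecule ICAM1 were lower in the interaction (-0.67 ± 0.069 and -0.61 ± 0.064), and TNFAIP2 was higher (0.96 ± 0.079).

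**Figure D2:**
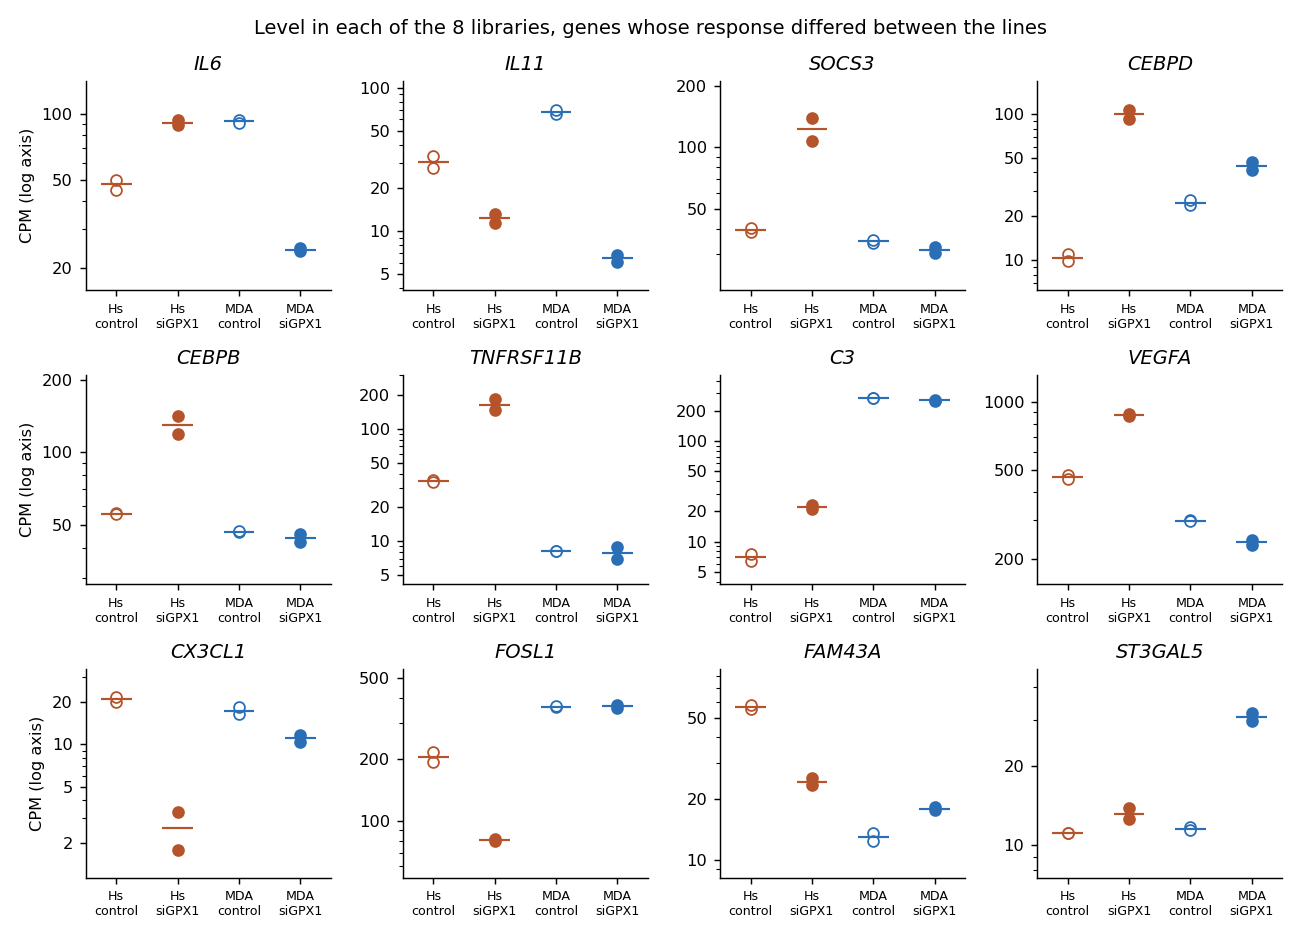
Level of 12 genes in each of the 8 libraries, in CPM on a log axis, with 1 point per library (open: control, filled: siGPX1), the mean of each pair as a bar, Hs578T in brown and MDA-MB-231 in blue. IL6 rises in brown and falls in blue, SOCS3, CEBPB, TNFRSF11B and C3 move apart only in brown, and ST3GAL5 moves apart mainly in blue.

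CCDC71L, a gene of little known function, was at 19.9 and 24.3 CPM in Hs578T controls, 117 and 133 after depletion, 20.03 and 23.5 in MDA-MB-231 controls and 33.5 and 34.1 after depletion (interaction -1.86 ± 0.14), a rise in both lines that was larger in Hs578T. THBD, the endothelial anticoagulant receptor thrombomodulin, was at 2.33 and 2.12 CPM in Hs578T controls, 9.86 and 9.77 after depletion, 99.3 and 101 in MDA-MB-231 controls and 128 and 133 after depletion, so it rose in both lines from very different levels (2.14 ± 0.16 and 0.38 ± 0.051, interaction -1.75 ± 0.17). MTUS1, a microtubule-associated protein, was at 6.02 and 6.59 CPM in Hs578T controls, 14.3 and 21.8 after depletion, 44.1 and 45.7 in MDA-MB-231 controls and 40.6 and 40.6 after depletion, and the change passed in Hs578T and not in MDA-MB-231 (1.52 ± 0.18 against -0.15 ± 0.096). TNC, the matrix protein tenascin C, was at 39.6 and 42.1 CPM in Hs578T controls, 98.1 and 82.2 after depletion, 239.8 and 241 in MDA-MB-231 controls and 179.5 and 173 after depletion. It rose by 1.14 ± 0.074 in Hs578T and fell by 0.45 ± 0.053 in MDA-MB-231 (interaction -1.59 ± 0.091, adjusted p = 2.77e-08). HTR7, a serotonin receptor, and ZSCAN31, a zinc finger protein, also passed in opposite directions, with 1.16 ± 0.12 and -0.49 ± 0.11 for the first and 1.04 ± 0.090 and -0.46 ± 0.15 for the second, Hs578T given before MDA-MB-231. GTF2H2C, with interaction -2.58 ± 0.31, has near-identical copies, so its value is uncertain.

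Of the 14 largest positive interactions among called genes at 5 CPM in both lines whose library differences did not overlap, 12 belonged to genes that fell in Hs578T, and in 9 of these MDA-MB-231 showed no fall that passed. FOSL1, the AP-1 subunit FRA1, was at 194 and 218 CPM in Hs578T controls, 79.7 and 81.7 after depletion, 361 and 365 in MDA-MB-231 controls and 368 and 359 after depletion, with -1.35 ± 0.054 in Hs578T and 0.00 ± 0.043 in MDA-MB-231 (interaction 1.35 ± 0.069, adjusted p = 1.20e-08). FAM43A was at 55.1 and 57.6 CPM in Hs578T controls, 25.2 and 23.3 after depletion, 13.5 and 12.4 in MDA-MB-231 controls and 17.6 and 18.2 after depletion, a fall in Hs578T and a rise in MDA-MB-231 (interaction 1.69 ± 0.11). DKK1, a secreted antagonist of Wnt signalling, was at 8.88 and 9.09 CPM in Hs578T controls, 3.66 and 4.07 after depletion, 103 and 111 in MDA-MB-231 controls and 121 and 123 after depletion, again a fall in Hs578T against a small rise in MDA-MB-231 (interaction 1.41 ± 0.16). TRAF1, an adaptor of TNF receptors, was at 128 and 127 CPM in Hs578T controls, 52.9 and 49.0 after depletion, 40.4 and 41.7 in MDA-MB-231 controls and 35.3 and 34.6 after depletion (interaction 1.09 ± 0.087), a fall in both lines that was larger in Hs578T. ST3GAL5, the sialyltransferase that makes the ganglioside GM3, differed in another way. It was at 11.1 and 11.1 CPM in Hs578T controls, 13.8 and 12.5 after depletion, 11.7 and 11.4 in MDA-MB-231 controls and 32.0 and 29.7 after depletion, with a rise in MDA-MB-231 and no change that passed in Hs578T (interaction 1.17 ± 0.14).

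The other genes of this kind were the interferon-induced GTPase GBP4 (interaction 1.245 ± 0.18), the phospholipid flippase ATP8A1 (1.22 ± 0.21), the carboxypeptidase inhibitor LXN (1.14 ± 0.14), ZNF704 (1.13 ± 0.16) and FAM133B (1.08 ± 0.30). The call of FAM133B was lost without the first Hs578T control (adjusted p = 0.132), without the first MDA-MB-231 siGPX1 replicate (0.0668) and with limma on TPM (0.0641). HERC2P3, GTF2H2B and RASA4 ranked with them (1.96 ± 0.45, 1.31 ± 0.13 and 1.11 ± 0.21) but have near-identical copies among which reads may be split, and HERC2P3 was not called by DESeq2 (adjusted p = 0.0603). All 14 genes named for a higher and 14 for a lower interaction by size had adjusted p of at most 0.0188.

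Opposite calls in the lines were found for 202 genes at 5 CPM in both (2.01%), 110 that rose in Hs578T and fell in MDA-MB-231 and 92 the other way. In all settings apart from the fold test 22 and 40 of them kept opposite calls. Genes were ranked by the smaller of their absolute changes in the lines. Besides IL6 and HTR7, the first group was led by the magnesium transport protein CNNM2 (0.66 ± 0.11 in Hs578T, -0.73 ± 0.13 in MDA-MB-231), the dermatan sulfate epimerase-like DSEL (0.78 ± 0.052 and -0.62 ± 0.093) and the semaphorin SEMA6B (0.72 ± 0.089 and -0.59 ± 0.073). Next came the vasodilator peptide ADM (0.54 ± 0.057 and -0.79 ± 0.083), the cAMP phosphodiesterase PDE7B (0.62 ± 0.14 and -0.51 ± 0.10) and the kinase STK38L (0.57 ± 0.073 and -0.49 ± 0.080). The opposite pattern was seen, beside FAM43A, ATP8A1 and LXN, for the flippase ATP8B1 (-0.44 ± 0.055 and 0.37 ± 0.069), the receptor adaptor ARRB2 (-0.42 ± 0.10 and 0.40 ± 0.11), the lymphangiogenic factor CCBE1 (-0.63 ± 0.053 and 0.35 ± 0.072) and the homeobox factor IRX3 (-0.47 ± 0.17 and 0.53 ± 0.12). FAM72A (-0.55 ± 0.13 and 0.36 ± 0.081) has near-identical copies. When every change had to exceed 1.5-fold in its test, 1 gene kept opposite calls, IL6.

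Hypoxia-inducible genes were lower in the interaction or not called. Of 29 tested, 15 were lower and 0 higher in the interaction, against 10.7% lower among all tested genes, with a median of -0.40. In Hs578T 19 rose and 4 fell (median 0.23), in MDA-MB-231 5 rose and 12 fell (median -0.12). Over the alternatives other than the fold test, 10 to 17 were lower and 0 or 1 higher, and the median lay between -0.46 and -0.24. VEGFA, the angiogenic growth factor, was at 475 and 457 CPM in Hs578T controls, 864 and 883 after depletion, 298 and 296 in MDA-MB-231 controls and 244 and 232 after depletion, which is a rise of 0.91 ± 0.036 and a fall of 0.32 ± 0.038 (interaction -1.22 ± 0.052, adjusted p = 2.47e-09). SLC2A1, the glucose transporter GLUT1, was at 138 and 139.9 CPM in Hs578T controls, 238 and 231 after depletion, 583 and 588 in MDA-MB-231 controls and 541 and 534 after depletion, also a rise in Hs578T and a small fall in MDA-MB-231 (interaction -0.88 ± 0.050). BHLHE40, a transcriptional repressor, was at 112 and 109 CPM in Hs578T controls, 264 and 274 after depletion, 74.5 and 72.7 in MDA-MB-231 controls and 89.9 and 89.0 after depletion and rose in both lines, less in MDA-MB-231 (interaction -1.002 ± 0.059). PFKFB4, which sets the level of a glycolytic activator, followed VEGFA with 0.71 ± 0.081 in Hs578T and -0.46 ± 0.080 in MDA-MB-231.

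EGLN1, the oxygen-sensing prolyl hydroxylase PHD2, rose by 0.99 ± 0.064 in Hs578T and 0.54 ± 0.056 in MDA-MB-231, and its interaction (-0.45 ± 0.085) was not called without the second control (adjusted p = 0.0632) or the first siGPX1 replicate (0.0585) of MDA-MB-231. PLOD2, a collagen-modifying enzyme, rose by 0.85 ± 0.044 in Hs578T and had a log2 change of 0.08 ± 0.051 in MDA-MB-231. EPAS1, which encodes HIF-2α and is no member of the list, was at 57.5 and 53.7 CPM in Hs578T controls, 177 and 165 after depletion, 69.4 and 69.8 in MDA-MB-231 controls and 77.3 and 77.9 after depletion (interaction -1.46 ± 0.074, adjusted p = 1.20e-08), and was added after its value was seen. HIF1A, which encodes HIF-1α and was added likewise, rose by 0.76 ± 0.033 in Hs578T and by 0.15 ± 0.032 in MDA-MB-231 (interaction -0.61 ± 0.046, adjusted p = 5.29e-07).

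Among glycolytic enzymes the calls were all on the same side. Of 16, 9 were lower and 0 higher in the interaction, with a median of -0.23. ENO1, the enolase, rose by 0.56 ± 0.038 in Hs578T and 0.17 ± 0.038 in MDA-MB-231 (interaction -0.39 ± 0.053, adjusted p = 1.25e-04). PGK1 rose by 0.53 ± 0.041 in Hs578T and had a log2 change of 0.08 ± 0.041 in MDA-MB-231, and GPI rose by 0.17 ± 0.036 in Hs578T and fell by 0.33 ± 0.036 in MDA-MB-231. The list was sensitive to the setting, with 3 to 11 members lower, and only ENO1, GPI and PGK1 were stable.

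**Figure D3:**
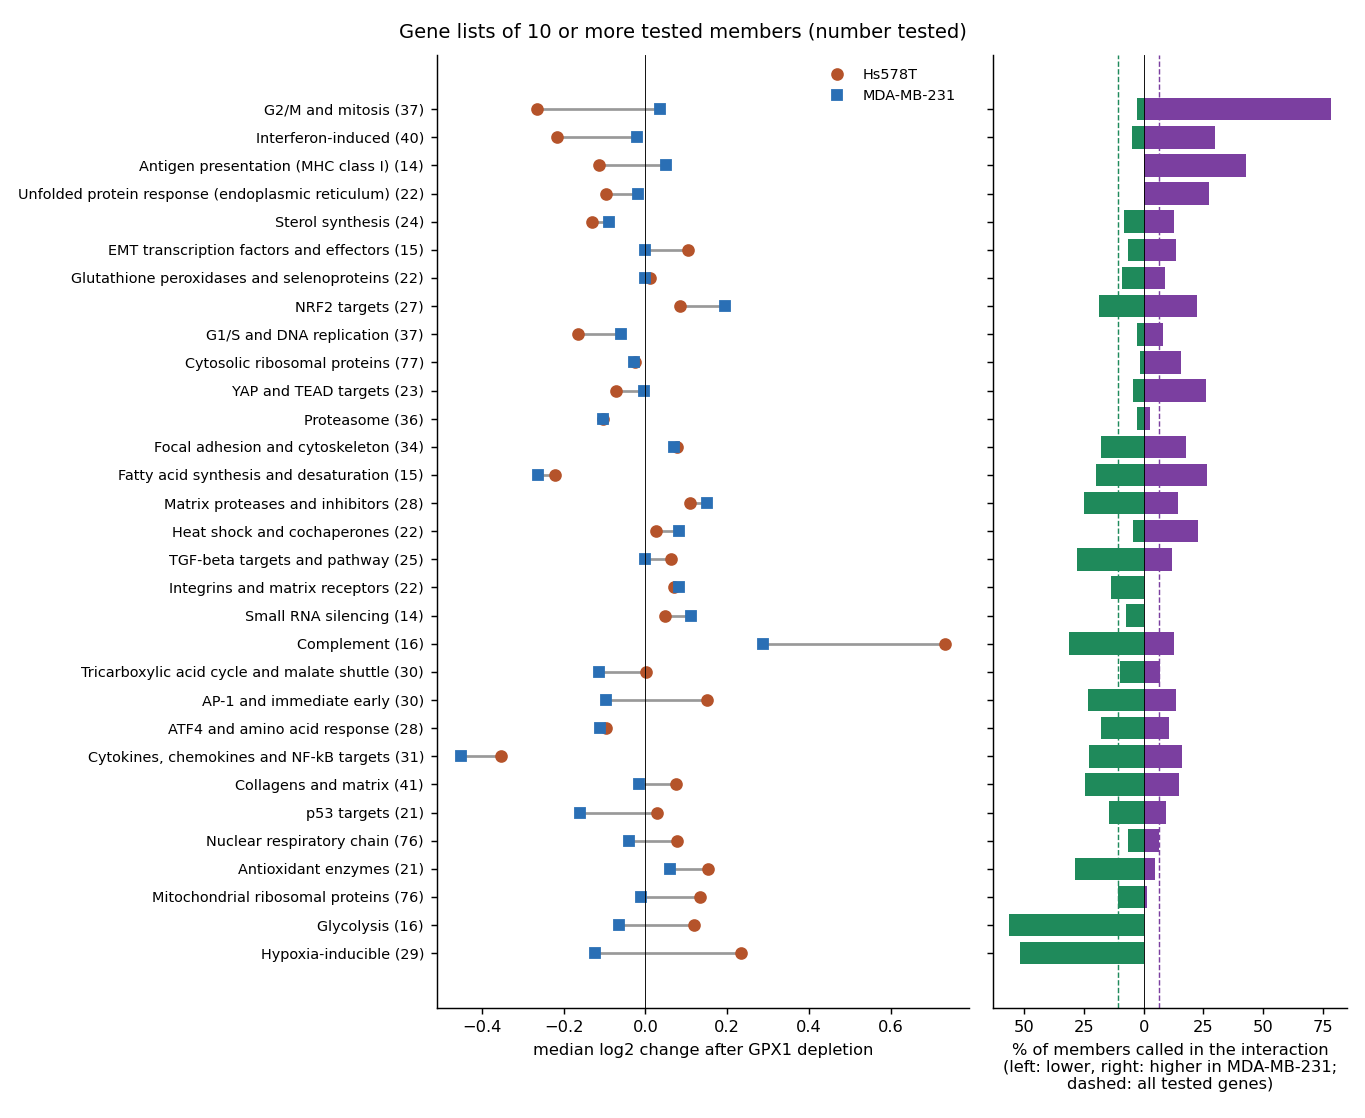
Left, median log2 change after GPX1 depletion in Hs578T (circles) and MDA-MB-231 (squares) for each gene list with 10 or more tested members, ordered by the median interaction. Right, percent of the members called higher (to the right) or lower (to the left) in MDA-MB-231 in the interaction, with all tested genes as dashed lines. G2/M genes stand at the top with 29 of 37 higher and hypoxia-inducible genes at the bottom with 15 of 29 lower.

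Most mitotic genes fell in Hs578T, and few fell in MDA-MB-231. Of 37 G2/M genes, 29 were higher, 1 lower and 7 not called in the interaction, against 6.32% higher among all tested genes, and 24 were stable. The median interaction was 0.33, between 0.29 and 0.43 over the alternatives. In Hs578T 2 rose and 29 fell (median -0.26), in MDA-MB-231 13 rose and 8 fell (median 0.04). In bulk RNA a smaller share of cells in G2 and mitosis cannot be told apart from less of these transcripts per cell. MKI67, the proliferation marker, was at 549 and 579 CPM in Hs578T controls, 294 and 303 after depletion, 940.2 and 901 in MDA-MB-231 controls and 849 and 818 after depletion (log2 -0.92 ± 0.040 and -0.14 ± 0.037, interaction 0.77 ± 0.055, adjusted p = 2.94e-07). CDC20, the activator of the anaphase-promoting complex, was at 233 and 236 CPM in Hs578T controls, 103 and 113 after depletion, 209 and 214 in MDA-MB-231 controls and 168 and 166 after depletion, a fall in both lines that was larger in Hs578T (interaction 0.78 ± 0.061). CENPF, a kinetochore protein, was at 478 and 474 CPM in Hs578T controls, 354 and 364 after depletion, 686 and 661 in MDA-MB-231 controls and 765 and 775 after depletion, so it fell in Hs578T and rose in MDA-MB-231.

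The mitotic kinases AURKA and PLK1 had -0.81 ± 0.043 and -0.48 ± 0.064 in Hs578T against -0.20 ± 0.036 and 0.09 ± 0.057 in MDA-MB-231. CCNB1, the mitotic cyclin B1, fell by 0.36 ± 0.041 in Hs578T and rose by 0.18 ± 0.036 in MDA-MB-231 (interaction 0.55 ± 0.055). TOP2A, the topoisomerase, had the largest fall of the list in both lines (-1.89 ± 0.036 and -1.36 ± 0.034) and still differed (0.53 ± 0.050). BIRC5 (survivin), BUB1B, CKAP2, TACC3 and ANLN fell in Hs578T with log2 changes of -0.41, -0.26, -0.35, -0.29 and -0.15, while all but BIRC5 rose in MDA-MB-231 (0.10, 0.19, 0.21, 0.15 and 0.29). The exception in the list was HJURP, a chaperone of centromeric histone, which was lower (interaction -0.36 ± 0.085, adjusted p = 0.00873) and rose in Hs578T, and this call was lost in 5 of the 8 fits that left out a library (adjusted p up to 0.191). CDK1, which drives entry into mitosis, rose by 0.42 ± 0.068 in Hs578T and 0.33 ± 0.060 in MDA-MB-231 and was not called in the interaction.

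Few genes of the G1/S transition were called in the interaction. Of 37, 3 were higher and 1 lower, with a median of 0.02, although the falls numbered 18 in Hs578T and 16 in the other line. The replication helicase subunits MCM5 (0.61 ± 0.077) and MCM4 (0.34 ± 0.059) and the histone chaperone CHAF1B (0.50 ± 0.11) were higher, and UNG, which removes uracil from DNA, was lower (-0.41 ± 0.095). The call of UNG was lost without the second control (adjusted p = 0.125) and without either siGPX1 replicate of MDA-MB-231 (0.0710 and 0.0931).

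**Figure D4:**
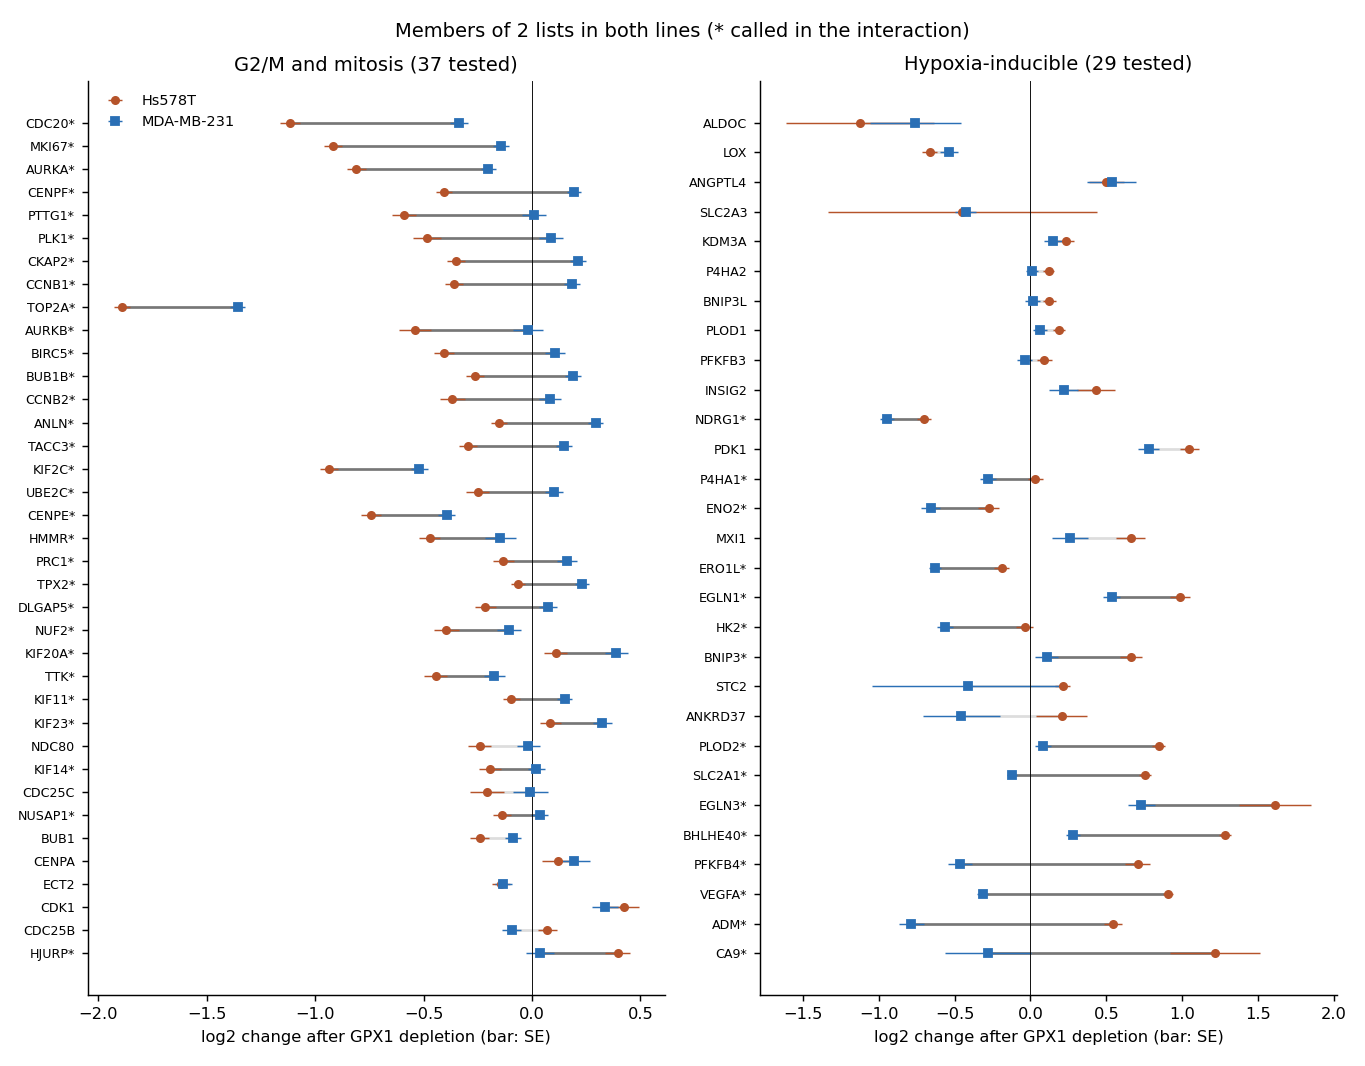
Log2 change after GPX1 depletion in Hs578T (circles) and MDA-MB-231 (squares), with SE, for each tested member of the G2/M list (left, 37) and the hypoxia list (right, 29), ordered by the interaction, with an asterisk at members called in it. Nearly every G2/M square lies to the right of its circle, and in the hypoxia list VEGFA, ADM, SLC2A1 and PFKFB4 lie on opposite sides of 0.

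Promoters of mitotic genes are known for a short element, TTTGAA, called the cell cycle genes homology region (CHR). RefSeq promoters on GRCh38.p14, from 250 bases before to 50 after the gene start, were searched on both strands, and 32 of the 37 genes matched by symbol. TTTGAA was present in 21 of these 32 (65.6%), in 9.38% of 7641 promoters of genes at 5 CPM in both lines and in 15.4% of all 27195 promoters in the table. CCAAT, the element bound by NF-Y, was in 22 of 32 (68.8%) against 37.5% of the 7641. The windows below are shown because their genes are the 8 members with a match and the smallest interaction p, with 1 match to TTTGAA or its reverse complement TTCAAA in capitals, 5′ to 3′ on the strand of the gene.
MKI67 (chr10:128126453-128126482, minus strand): ttagcgccagaaTTTGAAtcttcgttttcg
CDC20 (chr1:43358791-43358820, plus strand): cctctcgtacccTTCAAAtcgcgctccgcc
CENPF (chr1:214603223-214603244, plus strand): ggctgcgggcagTTTGAAttag
TOP2A (chr17:40418073-40418102, minus strand): cgagtggtgcctTTTGAAgcctctctagtc
ANLN (chr7:36389824-36389853, plus strand): tcggcgctgaaaTTCAAAtttgaacggctg
BUB1B (chr15:40161034-40161063, plus strand): gggaccgttaaaTTTGAAacttggcggcta
PLK1 (chr16:23678848-23678877, plus strand): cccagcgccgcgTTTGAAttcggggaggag
CCNB2 (chr15:59105105-59105134, plus strand): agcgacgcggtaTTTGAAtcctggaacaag
ANLN holds another match, in lower case, right after the marked one. In ANLN, BUB1B, PLK1 and CCNB2 the marked match starts 26, 23, 29 and 29 bases before the gene start. In MKI67, CDC20 and TOP2A it starts 47, 178 and 194 bases before it, and in CENPF inside the gene. CCNB1, KIF2C, CKAP2, TACC3, PTTG1, CENPE, AURKB and KIF20A, all higher in the interaction, have no match in this window.

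The element was also more frequent among genes with a higher interaction outside the list. It was present in 99 of 620 such promoters (16.0%) once the G2/M genes were set aside, against 90 of 1091 promoters of genes with a lower interaction (8.25%). Among stable higher genes outside the list it was in 69 of 376 (18.4%). Read the other way, the 696 genes at 5 CPM in both lines with the element and outside the list had a median interaction of -0.01, the 6924 without it -0.06, and 14.2% of the former and 7.64% of the latter were higher. Each of these is a description of letters in a window, not of binding.

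Promoters of the hypoxia list held ACGTG, the core of the hypoxia response element, in 13 of 24 cases (54.2%), against 28.2% of the 7641 promoters and 29.9% of those of genes with a lower interaction. The sequences TTCNNNGAA (STAT-like), TTGCNNAA (C/EBP-like) and TGANTCA (AP-1) were in 6.42, 7.61 and 5.50% of the promoters of lower genes and in 6.29, 6.67 and 4.16% of the 7641.

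Interferon-induced genes were more often higher than lower in the interaction. Of 40 tested, 12 were higher and 2 lower, with a median of 0.19 (0.17 to 0.31 over the alternatives), and 10 were stable. Among all tested genes 6.32% were higher and 10.7% lower. In Hs578T 3 rose and 19 fell, in MDA-MB-231 10 rose and 9 fell. Over all tested genes 28.6% rose and 22.1% fell in Hs578T, and 20.7% rose and 21.9% fell in MDA-MB-231. PARP14, an ADP-ribosyltransferase of macrophage and interferon responses, was at 275 and 267 CPM in Hs578T controls, 206 and 201 after depletion, 98.3 and 100.04 in MDA-MB-231 controls and 109.7 and 111 after depletion (interaction 0.57 ± 0.054, adjusted p = 4.65e-06). IRF1, a transcription factor of interferon responses, fell by 0.26 ± 0.054 in Hs578T and rose by 0.28 ± 0.054 in MDA-MB-231. TRIM22, an antiviral ubiquitin ligase, fell by 0.42 ± 0.096 and rose by 0.86 ± 0.19 (interaction 1.28 ± 0.22, adjusted p = 7.16e-04). SAMD9L fell by 0.51 ± 0.058 in Hs578T and had a log2 change of 0.04 ± 0.049 in MDA-MB-231. IFIT2 and IFI27 were the exceptions, lower in the interaction at -0.67 ± 0.18 and -0.59 ± 0.20, but neither was stable (adjusted p up to 0.207 and 0.387 with 1 library left out).

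Antigen presentation genes of MHC class I gave calls on the same side. Of 14, 6 were higher and 0 lower, against 6.32% higher among all tested genes. The median was 0.12 (0.10 to 0.24 over the alternatives). The peptide transporter subunits TAP1 and TAP2 fell by 0.37 ± 0.046 and 0.72 ± 0.045 in Hs578T, with -0.10 ± 0.042 and -0.33 ± 0.038 in MDA-MB-231, and the loading factor TAPBP fell by 0.10 ± 0.040 in Hs578T and rose by 0.14 ± 0.039 in MDA-MB-231. Genes of the unfolded protein response of the endoplasmic reticulum gave 6 of 22 higher and 0 lower. HYOU1 fell in both lines (-1.03 ± 0.033 and -0.53 ± 0.034, interaction 0.50 ± 0.048), and HSP90B1 had a log2 change of -0.01 ± 0.032 in Hs578T and rose by 0.23 ± 0.032 in MDA-MB-231. Among 22 heat shock genes 5 were higher, among them HSPA8 (0.33 ± 0.047) and HSP90AA1 (0.24 ± 0.046), and 1, HSPA4L, was lower (-0.47 ± 0.096), which DESeq2 did not call (adjusted p = 0.0520).

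Immediate early and growth factor genes split by member. Of 30, 4 were higher and 7 lower, with a median of -0.06. Beside FOSL1 the higher ones were SPRY4 (1.004 ± 0.14), SPRED1 (0.28 ± 0.072) and the transcription factor ETV5 (0.37 ± 0.11). SPRY4 and SPRED1 are feedback inhibitors of RAS and MAP kinase signalling. DUSP6, another feedback inhibitor of MAP kinase signalling, was stable on the lower side, so such inhibitors lay on both sides. The call of ETV5 was lost in some of the fits without 1 library. The lower ones included MYC, the growth-promoting transcription factor, at 64.6 and 63.7 CPM in Hs578T controls, 139 and 142 after depletion, 104 and 107 in MDA-MB-231 controls and 116 and 114 after depletion (interaction -1.01 ± 0.062, adjusted p = 5.81e-08, a rise in both lines that was larger in Hs578T), and the stress-induced gene IER3, at 229.5 and 217 CPM in Hs578T controls, 438 and 459.9 after depletion, 485 and 505 in MDA-MB-231 controls and 454 and 458 after depletion (interaction -1.12 ± 0.055, a rise in Hs578T against a small fall in MDA-MB-231). The AP-1 subunits JUN and FOSL2 were lower as well (-0.56 ± 0.056 and -0.55 ± 0.059), so within AP-1 FOSL1 lay on one side and JUN and FOSL2 on the other.

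Targets of YAP and TEAD, which report on cell tension and contact, gave 6 higher and 1 lower of 23, with a median of 0.02. ANKRD1 was under 5 CPM in Hs578T, with 28 and 35 counts in controls and 6 and 4 after depletion, while MDA-MB-231 had 1990, 2044, 2370 and 2266 (interaction 2.80 ± 0.39). AXL, a receptor tyrosine kinase linked to invasion, was at 1105 and 1102 CPM in Hs578T controls, 438 and 437 after depletion, 1279.7 and 1291 in MDA-MB-231 controls and 868 and 864 after depletion, a fall in both lines that was larger in Hs578T (interaction 0.76 ± 0.044, adjusted p = 3.06e-08). Of 25 genes of the TGF-β pathway 3 were higher and 7 lower. The ligand TGFB1 and the receptors TGFBR2 and TGFBR3 rose in Hs578T by 0.23 ± 0.039, 0.28 ± 0.041 and 0.39 ± 0.078 and fell in MDA-MB-231 by 0.17 ± 0.052, 0.17 ± 0.038 and 0.24 ± 0.065, and the ligand TGFB2 went the other way (-0.19 ± 0.056 and 0.22 ± 0.057).

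CD44, the hyaluronan receptor, was at 1154 and 1137 CPM in Hs578T controls, 2144 and 2221 after depletion, 1125 and 1094 in MDA-MB-231 controls and 1254 and 1271 after depletion (interaction -0.74 ± 0.047, adjusted p = 7.25e-08), a rise in both lines that was larger in Hs578T. SDC4, a heparan sulfate proteoglycan, rose by 0.87 ± 0.042 in Hs578T and had a log2 change of 0.06 ± 0.039 in MDA-MB-231. CD44, SDC4 and the integrin ITGA2 (-0.32 ± 0.053) were the 3 of 22 integrins and matrix receptors called lower, with 0 higher, and ITGA2 was not called without the first MDA-MB-231 siGPX1 replicate (adjusted p = 0.0523). Those 3 of 22 stand beside 10.7% lower among all tested genes. Of 41 collagen and matrix genes 6 were higher and 10 lower. COL6A3 and COL7A1 fell in MDA-MB-231, by 0.54 ± 0.060 and 0.89 ± 0.068, with 0.02 ± 0.042 and -0.12 ± 0.056 in Hs578T, and COL8A1 and COL12A1 were higher (0.63 ± 0.087 and 0.49 ± 0.065). Among 28 matrix proteases and inhibitors 4 were higher and 7 lower. PLAU, the urokinase, fell more in Hs578T (-0.81 ± 0.050 against -0.29 ± 0.046). ADAM10, a sheddase, rose by 1.11 ± 0.041 and 0.53 ± 0.036, and ADAMTS15 by 0.19 ± 0.057 and 0.94 ± 0.044.

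Genes of redox defence differed one by one. Of 22 glutathione peroxidases and selenoproteins tested, GPX1 included, 2 were higher and 2 lower, and of 21 other antioxidant enzymes 1 was higher and 6 lower. CAT, which also breaks down hydrogen peroxide, was at 95.2 and 93.1 CPM in Hs578T controls, 75.5 and 72.4 after depletion, 68.0 and 69.8 in MDA-MB-231 controls and 80.9 and 75.8 after depletion, a fall in Hs578T and a rise in MDA-MB-231 (interaction 0.53 ± 0.075, adjusted p = 1.75e-04). SOD2 was at 72.2 and 70.5 CPM in Hs578T controls, 132 and 121 after depletion, 96.5 and 97.8 in MDA-MB-231 controls and 108 and 108 after depletion, with a larger rise in Hs578T. TXNRD1, the cytosolic thioredoxin reductase, was at 455 and 471 CPM in Hs578T controls, 159.7 and 156 after depletion, 638 and 652 in MDA-MB-231 controls and 315 and 320.4 after depletion, a fall in both lines that was larger in Hs578T (interaction 0.53 ± 0.051). SECISBP2, which enables selenocysteine insertion, rose by 0.57 ± 0.084 in Hs578T and fell by 0.31 ± 0.065 in MDA-MB-231, and SEPW1, a small selenoprotein, fell (-0.86 ± 0.070 and -0.26 ± 0.081).

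Targets of NRF2, the main oxidant-responsive transcription factor, gave 6 higher and 5 lower of 27 and a median of 0.02. The autophagy receptor SQSTM1 and the transporter ABCC1 fell in both lines and more in Hs578T (interactions 0.47 ± 0.047 and 0.61 ± 0.068). Of 5 metallothioneins, which bind zinc and copper, 2 were higher. MT2A was at 255 and 250.5 CPM in Hs578T controls, 114 and 121 after depletion, 309.9 and 317 in MDA-MB-231 controls and 241 and 242 after depletion (interaction 0.73 ± 0.054, adjusted p = 5.07e-07, with a larger fall in Hs578T), and MT1E fell (-1.63 ± 0.11 and -0.81 ± 0.079). Metallothionein genes are nearly identical in sequence, so their separate values are uncertain.

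Stress and cytoskeletal lists held calls on both sides. Of 28 genes of ATF4 and the amino acid response 3 were higher and 5 lower. SLC7A11, the cystine transporter that feeds glutathione synthesis, rose by 0.36 ± 0.080 in MDA-MB-231 against a log2 change of 0.00 ± 0.043 in the other line (interaction 0.35 ± 0.091), and its partner chain SLC3A2 fell there by 0.32 ± 0.050, with 0.08 ± 0.051 in Hs578T (interaction -0.40 ± 0.071). DDIT4, a stress-induced inhibitor of mTOR, was lower (-0.50 ± 0.061). Of 21 p53 targets 2 were higher, the death receptor FAS (0.82 ± 0.17) and the DNA polymerase POLH (0.30 ± 0.085), and 3 lower, TP53INP1 (-0.76 ± 0.20), BTG2 (-1.15 ± 0.36) and the death receptor TNFRSF10B (-0.36 ± 0.058). FAS and TNFRSF10B were the stable ones among them. The call of POLH was lost without the second Hs578T control (adjusted p = 0.0893), that of TP53INP1 in 4 of 8 fits without 1 library (adjusted p up to 0.263) and that of BTG2 in 5 of 8 (adjusted p up to 0.263) and with the replicate block (adjusted p = 0.0515). Of 34 focal adhesion and cytoskeleton genes 6 were higher and 6 lower, with the small GTPase RAC1 (0.30 ± 0.051) and the cofilin kinase LIMK1 (0.32 ± 0.065) on the higher side. Of 15 genes of the epithelial-mesenchymal transition 2 were higher, the transcription factors SOX4 (0.52 ± 0.097) and SOX9 (0.63 ± 0.096), and 1 lower, SNAI1, which was under 5 CPM in MDA-MB-231 and was not stable. Of 14 small RNA silencing genes 1 was lower, PRKRA, which binds double-stranded RNA (-0.32 ± 0.10). Its call was lost in all 8 fits without 1 library (adjusted p 0.0545 to 0.432).

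Of 24 sterol synthesis genes 3 were higher and 2 lower, and of 15 genes of fatty acid synthesis 4 and 3. FASN, the fatty acid synthase, fell in both lines and more in Hs578T (interaction 0.39 ± 0.056), while HMGCS1, an early enzyme of sterol synthesis, had a log2 change of -0.08 ± 0.055 in Hs578T and rose by 0.38 ± 0.059 in MDA-MB-231. Of 77 cytosolic ribosomal protein genes 12 were higher and 1 lower, led by RPL8 (-1.84 ± 0.036 and -1.23 ± 0.037), RPL13A (-0.88 ± 0.043 and -0.29 ± 0.044) and RPL3 (-0.77 ± 0.032 and -0.37 ± 0.032), and their processed pseudogenes may take up or add reads. Mitochondrial ribosomal proteins gave 1 higher and 8 lower of 76 with a median of -0.12, but only MRPL11 (higher, 0.47 ± 0.091) and MRPS10 (lower, -0.45 ± 0.067) were stable. The respiratory chain gave 5 and 5 of 76, the proteasome 1 and 1 of 36 and the tricarboxylic acid cycle 2 and 3 of 30. ATP5G2, a subunit of the ATP synthase, was called higher, with a larger fall in Hs578T (-2.18 ± 0.078 against -1.47 ± 0.071).

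Of 17 luminal epithelial markers tested, 2 were higher, KRT8 (0.37 ± 0.091) and KRT7 (0.82 ± 0.18), and 2 lower. Both calls were lost without the second Hs578T control (adjusted p = 0.103 for KRT8 and 0.0669 for KRT7). KRT18 rose by 1.62 ± 0.051 in Hs578T and 0.65 ± 0.048 in MDA-MB-231, MUC1, a membrane mucin, by 2.24 ± 0.11 and 1.23 ± 0.062, and the list's summed level went from 461 to 468 CPM in Hs578T controls to 792 to 849 after depletion and from 1936 to 1960 CPM to 2767 to 2833 in MDA-MB-231. Basal keratinocyte markers gave 0 of 7, leukocyte markers 1 of 6 (CD68, 0.49 ± 0.076), endothelial markers 1 of 5 (PECAM1, -1.40 ± 0.26) and fibroblast markers 2 of 18 (TNC and S100A4). Of the 20 leukocyte markers 5 were at 1 CPM or more, and CD3E, MS4A1, FCGR3A, CD163 and TYROBP had 0 counts in all 8 libraries. The leukocyte sum went from 82.1 to 83.5 CPM in Hs578T controls to 52.8 to 57.0 after depletion and from 1054 to 1065 CPM to 1115 to 1117 in MDA-MB-231, and the fibroblast sum from 58952 to 59459 CPM to 68859 to 76649 and from 3477 to 3487 CPM to 4088 to 4108. The part of such cell-type differences in the results above was not tested. Marker sums and the count at 1 CPM used CPM of the library total alone, without the scaling between libraries.

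Where the lines responded alike, some of the shared changes were large. Of 4159 genes called in the same direction in both lines, 3328 had a 95% interval of the interaction within 1.5-fold of 0, 1735 of them rising and 1593 falling. With a tighter bound the number was 1662. Of the 3328, 166 changed over 2-fold in both lines. In all, 289 genes changed over 2-fold in the same direction in both lines, and 75 of these were called in the interaction. The genes below were picked for large changes in both lines. ARL6IP1, which shapes the endoplasmic reticulum, was at 69.2 and 67.3 CPM in Hs578T controls, 275 and 295 after depletion, 129 and 133 in MDA-MB-231 controls and 579 and 569.9 after depletion, a rise of 2.06 ± 0.048 and 2.13 ± 0.041 (interval of the interaction -0.06 to 0.20). CDC42SE2, an effector of CDC42, rose by 1.77 ± 0.073 and 1.73 ± 0.066, and CPOX, an enzyme of heme synthesis, by 1.67 ± 0.047 and 1.55 ± 0.041. BAG2, a cochaperone of HSP70, fell (-2.13 ± 0.079 and -2.14 ± 0.064, interval -0.23 to 0.21), as did the adiponectin receptor ADIPOR2 (-2.53 ± 0.088 and -2.78 ± 0.077, interval -0.50 to -0.0020). MDH2, the mitochondrial malate dehydrogenase, was within the same bound (interval 0.16 to 0.52) and still called in the interaction (0.34 ± 0.083, adjusted p = 0.00997), because the test asks whether the difference is 0 and the bound how large it can be.

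A sequence feature of the shared falls was set beside the interaction. Each of 16224 sequences of 7 bases found in the 3′ untranslated regions (UTRs) of 50 or more tested genes was ranked by a score. A linear fit on log2 UTR length was first taken off the changes. The score was the mean of the genes with the sequence minus that of the others, divided by its SE, and the lowest score took rank 1. GGGCATC and GGCATCA took ranks 1 and 2 in both lines, and the 6 lowest in each line all contain GGCATC. For the interaction they ranked 14980 and 3868 from the lowest, which is 1245 and 12357 from the highest. Together they spell GGGCATCA, which lies in the coding part of GPX1 transcripts (position 566 of a transcript of 1151 bases, GENCODE 29). A window of GPX1 and the UTR matches of 4 named genes are shown, with the match in capitals, since they carry this comparison.
GPX1 (coding): gcaaccagtttGGGCATCAggagaacgcca
MDH2: taatttatgaaGGCATCAtgtcactgcaa
NEDD8: gctcataatgaGGCATCAtatatcctctc
IL11: tgaggcctgggGGGCATCtgtgccttatt
CSF1: gagcacttggtGGCATCAgagcaggagga
MDH2 and NEDD8, which modifies cullin ubiquitin ligases, had intervals of the interaction within 1.5-fold of 0, although NEDD8 was called in the interaction with the stricter filter (adjusted p = 0.0452), IL11 fell more in MDA-MB-231 and CSF1 more in Hs578T.

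The sequences were chosen as the lowest ranked on these same changes, so lower medians with a match follow in part from that choice. The classes are a description and no test. With a longer match the median change was lower in both lines. Among genes at 5 CPM in both, the 225 with the 8-base match had a median of -0.43 for Hs578T and -0.44 for MDA-MB-231, the 1123 with a 7-base match -0.18 and -0.18, the 1058 with only GGCATC -0.06 and -0.07 and the 7293 without it 0.10 and 0.03. The median interaction of the same classes was -0.02, -0.02, -0.04 and -0.07. The share called in the interaction was 25.3, 23.8, 23.2 and 22.5%, near the 22.5% of all genes at this level. Of the 14 genes per direction named for the size of their interaction, 3 higher and 3 lower had a 7- or 8-base match, of 12 and 14 with a UTR joined. Among all genes at this level, 225 and 1123 had an 8- or 7-base match, beside 1058 with only GGCATC and 7293 without it. The counts among named genes are small and were not tested against this background.

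**Figure D5:**
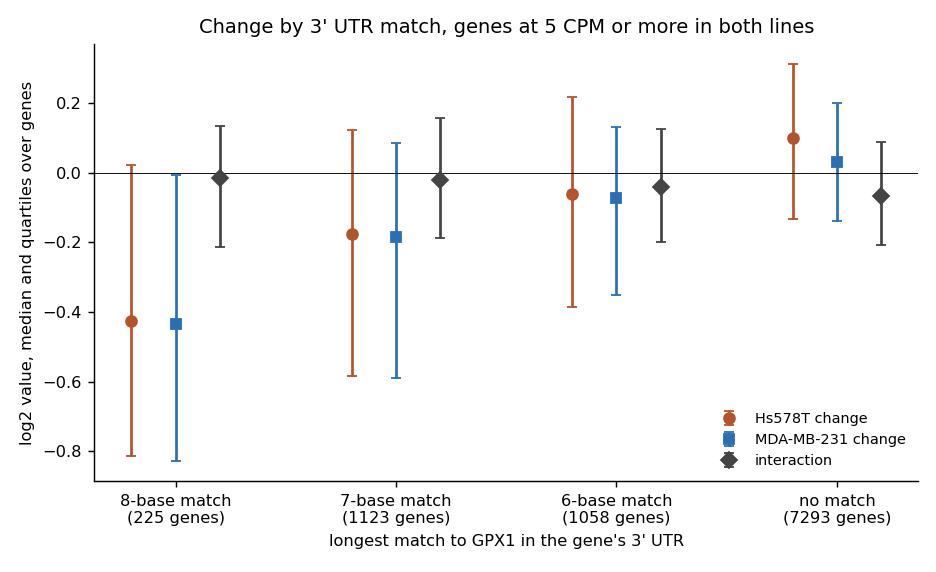
Median and quartiles over genes of the log2 change in Hs578T (circles), in MDA-MB-231 (squares) and of the interaction (diamonds), for genes at 5 CPM or more in both lines, by the longest match of their 3′ UTR to GGGCATCA or the GGCATC within it. The median change goes from 0.10 and 0.03 without a match to -0.43 and -0.44 with the 8-base match. The median interaction stays between -0.07 and -0.02, and the sequences were chosen on these same changes.

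Some called genes were hardly expressed in 1 of the lines. By counts in the order of the 2 Hs578T controls, 2 Hs578T siGPX1, 2 MDA-MB-231 controls and 2 MDA-MB-231 siGPX1 libraries, ACVR1C, an activin receptor, had 71, 79, 76, 66, 1, 2, 12 and 11, PCDH1, a protocadherin, 2, 4, 0, 0, 219, 231, 316 and 340 and TYMP, thymidine phosphorylase, 15, 13, 2, 3, 114, 101, 103 and 104. ADM2, a relative of ADM, had 354, 328, 346, 286, 8, 12, 0 and 3, MBP, known from myelin, 0, 0, 4, 1, 1837, 1879, 1679 and 1598 and TMLHE, an enzyme of carnitine synthesis, 130, 121, 130, 129, 3, 3, 0 and 0. All 6 were called in the interaction (adjusted p of at most 0.0381), but the call rests on at most 15 counts per library in the low line, none of the 6 was stable, and no fold is given.

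The precision of the interaction followed the level. Its median SE was 0.15 on the log2 scale for genes at 5 to 20 CPM in their lower line (3090 genes, 13.9% called), 0.09 at 20 to 100 CPM (5217 genes, 22.1%) and 0.06 above (1728 genes, 39.1%). All 4 differences between a depleted and a control library of one line lay beyond all 4 of the other in 51.4% of the 10035 genes and 43.6% of all tested, so such a separation is common in these libraries and is not counted as support for a gene.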

How the data were processed

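Total RNA of 8 samples was sequenced, and the authors deposited for each library a gene table of expected counts and TPM values (transcript abundance scaled to a fixed total), made with RSEM 1.2.12 on the hg19 build, per the submitters' processing notes. FastQC is listed there too, and the aligner and annotation are not given in the sources used. RSEM splits reads among similar genes by estimate, and 94.7 to 94.9% of the counts above 0 in a library were exact whole numbers. The lines also differed in the authors' effective gene length, so counts rather than the deposited TPM were the main measure.

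The deposited expected counts were rounded, genes with low counts were dropped (edgeR filterByExpr, 14249 kept), and libraries were scaled by TMM. The factors were 0.893 to 0.941 in Hs578T and 1.09 in MDA-MB-231. edgeR 4.0.16 (R 4.3.3) fitted 4 group means with 4 residual degrees of freedom, and quasi-likelihood tests gave the change in each line and their difference, with Benjamini-Hochberg adjustment and a threshold of 0.05. The code was tested on simulated data, where slightly more calls of the interaction were false than the threshold allows and intervals covered slightly less than their nominal share. Intervals are 95%. An interaction was bounded as alike when both lines were called in the same direction and its interval lay within 1.5-fold. Alternatives were DESeq2 1.42.0 and its size factors, limma-voom and limma 3.58.1 on log2(TPM + 1), other filters, a test against a fold of 1.5, a replicate block and leaving out each library.

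Named genes were the 14 largest differences per direction among called genes at 5 CPM in both lines whose 4 pairwise differences do not overlap, the 8 opposite calls per direction with the largest smaller change, 3 genes of 1 line per direction, 6 alike genes per direction and up to 3 members of each of 37 gene lists with the smallest p. A further 41 were named after their values were seen, among them IL6ST, C1R, C1S, EPAS1, HIF1A, PFKFB4, AURKA, PLK1, CCNB1, TOP2A, HJURP, TRIM22, JUN and FOSL2. The members, lists and this rule were chosen with earlier results of these data known. Some genes that the rule chose are not reported here. The promoter and untranslated-region searches were added after seeing the data. They used RefSeq promoters on GRCh38.p14 (10228 tested genes matched by symbol) and GENCODE 29 transcripts (13153 tested genes, 92.3%, with a 3′ UTR of 30 bases or more).

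Replicate numbers appear in the titles but do not pair samples. Across 11294 genes the deviations of same-numbered control and depleted libraries correlated at -0.09 in Hs578T and 0.05 in MDA-MB-231.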

Additional observations from a re-analysis of the deposited data

Results flagged for a closer look

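The lines' responses differed by the test of the difference itself in 900 genes with a higher and 1528 with a lower response in MDA-MB-231. The 16 genes chosen for opposite calls in the lines, 8 per direction with the largest smaller change, passed that test too. Those that rose in Hs578T and fell in MDA-MB-231 had interactions on the log2 scale of -2.88 for IL6, -1.65 for HTR7, -1.40 for DSEL, -1.39 for CNNM2, -1.33 for ADM, -1.31 for SEMA6B, -1.13 for PDE7B and -1.07 for STK38L. Those that fell in Hs578T and rose in MDA-MB-231 had 1.69 for FAM43A, 1.22 for ATP8A1, 1.14 for LXN, 0.9997 for IRX3, 0.98 for CCBE1, 0.91 for FAM72A, 0.81 for ARRB2 and 0.81 for ATP8B1. With 2 libraries in a group no single library could be tested as an outlier.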

How the results depend on the processing

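No interaction of a named gene that was called reversed its sign. The counts of genes higher and lower moved with the test, the filter, the scaling and the libraries used. Over the settings other than the fold test the median interaction kept its sign in several lists. Among these were the G2/M, hypoxia, glycolysis, interferon, MHC class I, unfolded protein response and sterol synthesis lists. It crossed 0 in others, among them complement (-0.41 to 0.08) and targets of YAP and TEAD (-0.02 to 0.16). With DESeq2 size factors in edgeR 1000 genes were lower (911 at 5 CPM in both lines), and 139 and 72 genes had opposite calls with a rise in MDA-MB-231 and in Hs578T. DESeq2 gave 543 lower genes (512 at 5 CPM in both), 34 opposite genes that rose in Hs578T and 1938 that fell in MDA-MB-231. The stricter filter gave 1684 higher and 797 lower (1607 and 734), with 203 and 61 opposite. Limma on TPM gave 954 lower (760), 71 opposite that rose in Hs578T, and a GPX1 interaction of -0.30 that passed (adjusted p = 0.0310). The test against a fold of 1.5 kept 21 higher and 70 lower (16 and 61), 0 and 1 opposite, 515 that rose and 688 that fell in Hs578T, and 158 and 521 in the other line. Under the tighter fold bound 1662 genes were bounded as alike.

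Leaving out 1 library gave 693 to 1164 higher and 513 to 1573 lower genes, and 654 to 1081 and 459 to 1466 at 5 CPM in both lines. Lower genes numbered 968 and 991 without a Hs578T control and 513 to 549 without an MDA-MB-231 library. The lowest count of lower genes was without the first MDA-MB-231 siGPX1 replicate, and the largest count of higher genes was without the first Hs578T siGPX1 replicate. Opposite genes numbered 38 to 130 with a rise in Hs578T and 68 to 123 with a rise in MDA-MB-231. Depletion raised 3315 to 3695 genes and lowered 2729 to 3480 in Hs578T. The ranges in the other line were 2787 to 3308 and 2033 to 3324. The interaction of GPX1 lay between -0.27 and -0.10. The cause of these movements was not tested.

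With the replicate block, 904 genes were higher and 1507 lower (845 and 1406 at 5 CPM in both lines), 96 and 115 were opposite and GPX1 was at -0.25. Of the 189 genes chosen for naming other than GPX1 the block ended the call of 2, SNAI1 (adjusted p = 0.0556) and BTG2 (0.0515). Of those genes 173 had an unchanged status with DESeq2, called or not called, and 11 lost a call. These counts were 181 and 6 with DESeq2 size factors, 180 and 6 with the stricter filter and 173 and 14 on TPM. They were 188 and 1 with voom and 185 and 4 without a filter. The unchanged genes include some that were not called in the first place, such as alike genes, so they are not all kept calls. At 5 to 20 CPM the median SE of 0.15 limits calls to larger differences.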
